A study of Mus musculus with 62 samples.

Results

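Cebpb and Lmtk3 were examined in the ribosome footprints and the mRNA of the mouse heart and of C2C12 cells, a line of mouse myoblasts. Both were chosen from the heart footprints themselves, Cebpb as a gene with more footprints and Lmtk3 as a gene with fewer footprints in hearts lacking RPL3L. Their differences between heart genotypes are therefore given as a description, with no test. Of the 23877 transcripts with a line in the count table, 23662 matched the GENCODE M21 annotation of GRCm38 and belonged to 10476 genes. These transcripts include 1 of Cebpb and 4 of the 9 annotated transcripts of Lmtk3, 5 in all. All 5 had a mean count of at least 10 in heart Ribo-seq, whereas Cebpb alone reached this level in heart RNA-seq.

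RPL3L replaces its paralog RPL3 in a share of the ribosomes of heart and skeletal muscle. Ribo-seq, which sequences the 17 to 34 nt of mRNA that a ribosome protects from RNase I, and poly(A)-selected RNA-seq had been performed on 4 Rpl3l+/+ and 4 Rpl3l-/- hearts of 10-week-old C57BL/6J mice, the latter from zygotes in which exon 2 of Rpl3l had been deleted with CRISPR-Cas9. The same assays covered 3 cultures each of proliferating C2C12 cells infected with a retrovirus for mouse RPL3 (RPL3 OE), for mouse RPL3L (RPL3L OE) or with the empty virus (control). Whole hearts hold many cell types, so fewer cells of a type and less RNA per cell cannot be told apart, and the overexpression comes from a viral construct in a myoblast line.

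C/EBPβ, the product of Cebpb, is a transcription factor of the basic leucine zipper class that takes part in acute-phase, inflammatory and adipocyte programs. Its mRNA has no intron and is translated from several in-frame start codons into a full-length form, a slightly shorter activator (LAP) and a truncated inhibitor (LIP), with a short upstream open reading frame that takes part in the choice between them. LMTK3 is a membrane-anchored kinase of the lemur tyrosine kinase family, best known from neurons and from breast cancer.

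Cebpb lies on the plus strand of GRCm38 at chr2:167688915-167690418 as a single exon (ENSMUST00000070642.3) of 1504 nt with 296 codons. The starts of its protein forms are shown because counts per transcript sum footprints over all of them. Of its in-frame AUG codons, those that open the known forms are given from the GENCODE M21 transcript sequence, in capitals as ATG and numbered from the first codon of the annotated frame:
Cebpb codon 1: ccccgcgttcATGcacc
Cebpb codon 22: ctttagacccATGgaag
Cebpb codon 152: cgcgcccgccATGgcgg
The first opens the full-length form, the next LAP and the last of these LIP. Further in-frame ATG codons lie downstream at codons 227 and 245. In another frame, bases 137 to 166 of the transcript hold the short open reading frame ATGCCTCCCGCCGCCGCCCGCCGCCTTTAG, here all in capitals, with 9 codons before its stop. The stop is followed after 4 bases by the ATG of codon 22. Footprints of the short frame, LAP and LIP cannot be told apart in counts per transcript.

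Lmtk3 lies on the plus strand of chromosome 7, and the transcript with the highest mean count (ENSMUST00000233503.1) spans chr7:45785380-45804144 with 16 exons, 4830 nt and 1446 codons. The other isoforms have 1424 or 1450 codons. Transcripts share reads, since reads with several matches had been kept, and the counts of the 4 isoforms in any library differed by at most 3. The values below are those of ENSMUST00000233503.1 unless stated otherwise. A start of cctggacaagATGcctg is common to 3 isoforms, and ENSMUST00000209617.1 begins with ttcctggaccATGgaga, the start codon again in capitals.

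What the genes share is their composition. The choice did not use it directly, although heart footprint changes of other genes rose with GC content, as given below. GC content was 67.2% in Cebpb and 67.0% in Lmtk3, above 99.8% of 10415 genes in either case, against a median of 49.6%. Codons for proline or alanine made up 33.4% of the Cebpb frame, above 99.8% of genes, and 24.6% of the Lmtk3 frame, above 98.3% of genes, against a median of 12.2%. Alanine codons were the more frequent in Cebpb (20.6% against 12.8% for proline), whereas proline codons were in Lmtk3 (15.6% against 8.99%). The first of the 10-codon stretches richest in both residues is shown for each gene, with proline and alanine codons in capitals, because these codons set the genes apart from most others:
Cebpb codons 9 to 18: GCAGCAtgcctcCCGCCGCCGCCCGCCGCC
Lmtk3 codons 746 to 755: CCACCTCCCGCTCCCCCCCCTCCACCGCCC
The Cebpb stretch has 8 such codons of 10 and overlaps the short open reading frame, and 17 stretches of the gene hold as many. That of Lmtk3 has 10 of 10, of which 9 are for proline.

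Libraries held 3594696 to 14041366 RNA-seq counts in Rpl3l+/+ and 10930435 to 22425296 in Rpl3l-/- hearts, and 1873813 to 3192090 and 1606700 to 2322481 Ribo-seq counts, respectively. C2C12 libraries held 7647102 to 29746110 RNA-seq and 3167026 to 6093268 Ribo-seq counts. Levels are given as CPM, the count scaled by the total of its library. Rpl3l, the deleted gene, was at 401.1 to 515.8 CPM in RNA-seq of Rpl3l+/+ hearts and at 24.35 to 37.0 CPM in Rpl3l-/- hearts as the labels state. Its footprints were at 266.3 to 290.1 and 6.03 to 13.1 CPM, and RPL3L OE cells had 1996 to 2053 CPM in RNA-seq against 0.168 to 0.572 CPM in control cells. As for the defining markers of the heart, the 10 cardiomyocyte genes in the table summed to 52590 to 60990 CPM in heart RNA-seq, and in C2C12 cells the 9 myoblast genes in the table were all detected.

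Cebpb had more footprints in all 4 Rpl3l-/- hearts than in any Rpl3l+/+ heart. Ribo-seq gave 90.5, 67.4, 74.8 and 78.45 CPM in the Rpl3l+/+ hearts, from 147 to 289 counts per library. In the Rpl3l-/- hearts it gave 194.8, 168.4, 132.6 and 175.0 CPM, from 213 to 391 counts. The means were 77.8 ± 9.66 and 167.7 ± 25.95 CPM (SD, n = 4 each), and the lowest Rpl3l-/- heart stood well above the highest Rpl3l+/+ heart. In a quasi-likelihood fit of edgeR with library sizes scaled by TMM, the log2 fold change was 1.15 (standard error 0.12), or 2.21-fold. Of 12695 transcripts in this fit, 0.425% passed an adjusted p-value of 0.05 as higher and 3.43% were higher without overlap of the groups. These shares are background to the choice of the gene and nothing is read from them. By size, Cebpb was the third of the 31 genes with a transcript past the threshold as higher, a place taken from the values that chose it and no test.

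The mRNA of Cebpb was also higher in every Rpl3l-/- heart, by less than the footprints. RNA-seq gave 49.8, 44.6, 37.2 and 45.6 CPM in Rpl3l+/+ and 71.0, 65.2, 78.75 and 56.9 CPM in Rpl3l-/- hearts. The means were 44.3 ± 5.24 and 67.95 ± 9.23 CPM (SD, n = 4 each), with no overlap. The log2 fold change was 0.62 (standard error 0.15), or 1.54-fold. Of 15394 transcripts in the RNA-seq fit, 0.013% passed the threshold in either direction, both of Rpl3l, and 0.747% were higher without overlap. Replicates 1 to 3 of the Rpl3l+/+ RNA-seq libraries were shallower than every Rpl3l-/- library. The deeper replicate 4, with 14041366 counts, lay within the range of the Rpl3l-/- libraries in depth, and its 45.6 CPM lay within the range of the other Rpl3l+/+ hearts.

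Footprints over mRNA, which measure translational efficiency (TE), stood at 1.76 in Rpl3l+/+ and 2.47 in Rpl3l-/- hearts as ratios of mean CPM. As an interaction of genotype and assay the log2 fold change in TE of Cebpb was 0.52 (standard error 0.19). In this fit of 12483 transcripts edgeR called 0 past the threshold (0.0%), with 803 at an unadjusted p-value under 0.05, and DESeq2 called 20. Leaving out 1 replicate at a time moved the TE value of Cebpb between 0.41 and 0.66.

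Lmtk3 footprints differed in the other direction. Ribo-seq gave 17.9, 25.3, 24.2 and 22.4 CPM in Rpl3l+/+ hearts, from 57, 62, 57 and 42 counts. In Rpl3l-/- hearts it gave 9.35, 6.03, 3.73 and 5.95 CPM, from only 18, 14, 6 and 10 counts. Every Rpl3l-/- heart lay below every Rpl3l+/+ heart, with means of 22.5 ± 3.29 and 6.27 ± 2.31 CPM (SD, n = 4 each). The log2 fold change was -1.77 (standard error 0.24), or 3.40-fold lower, and it was between -1.77 and -1.74 over the 4 isoforms. Of the transcripts tested, 0.252% passed the threshold as lower and 7.05% were lower without overlap, again a background that the choice of the gene has used. Among 12 genes with a transcript past the edgeR threshold as lower, Lmtk3 came next after Rpl3l by size. This place is taken from the values that chose it and is no test, and DESeq2 did not have Lmtk3 past its threshold.

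**Figure D1:**
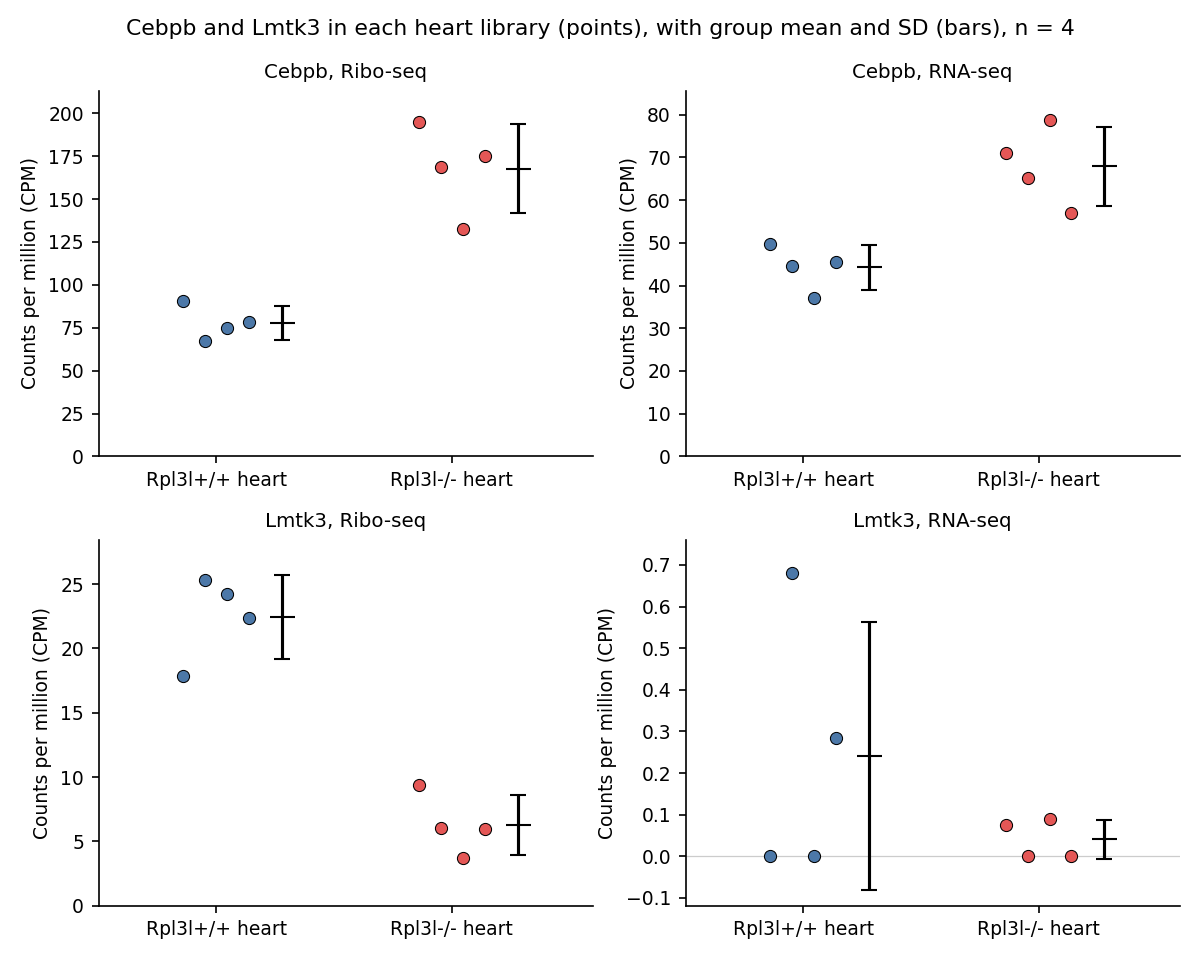
Levels of Cebpb (top) and Lmtk3 (bottom) in CPM in each heart library of Ribo-seq (left) and RNA-seq (right), with points for libraries and bars for the group mean and SD (n = 4). Cebpb is higher in every Rpl3l-/- heart in both assays, and Lmtk3 footprints lie below 10 CPM in every Rpl3l-/- heart while its mRNA stays under 1 CPM in all hearts.

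Lmtk3 mRNA was close to absent from the RNA-seq libraries of hearts of both genotypes. RNA-seq counted 0, 3, 0 and 4 reads in Rpl3l+/+ and 1, 0, 2 and 0 in Rpl3l-/- hearts, 10 in all against 266 footprints. The highest library held 0.679 CPM, and where the count was 0 the depth allows up to 0.835 CPM (3 counts in the shallowest library, covering counting error only). With so few reads neither an mRNA change nor a change in TE could be fitted, and none was detectable at this depth. Of 5379 genes with heart footprints, 99.1% had more heart RNA-seq counts than Lmtk3. A total of 85 transcripts of 48 genes had as few or fewer RNA-seq counts beside a mean of at least 10 footprints. The median log2 fold change of their footprints was 0.18. The 85 include the transcripts of Lmtk3. Of the 85, edgeR had 9 past the threshold as lower and 0 as higher, against 0.252% and 0.425% of all transcripts tested. The 9 include Lmtk3, which was chosen for its lower footprints, and isoforms that share reads are counted separately. Nothing is therefore read from this share. As for reads from elsewhere, no run of 28 bases of ENSMUST00000233503.1 occurs in a transcript of another gene on either strand, while runs of 25 bases occur in Aebp2 and Gm49698 and runs of 20 bases in 45 transcripts of 23 genes on the same and 31 transcripts of 11 genes on the opposite strand. Of Cebpb, runs of 28 bases occur on the same strand in 20 transcripts of 19 other genes, Cebpa among them, and runs of 20 bases in 1192 transcripts of 808 genes. On the minus strand, Tmem189 overlaps Cebpb and Sult2b1 overlaps the 5′ end of the Lmtk3 isoforms ENSMUST00000209617.1 and ENSMUST00000072580.11, and whether the counting used strand is not given in the sources used here.

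**Figure D2:**
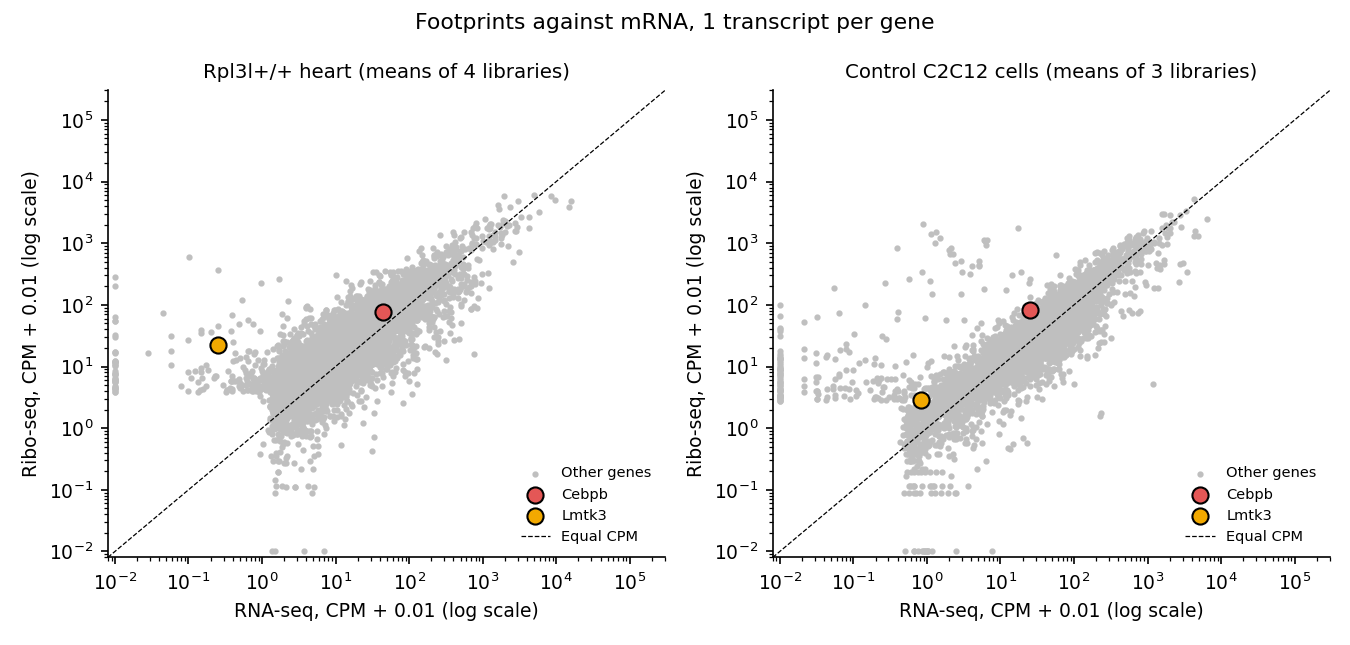
Mean Ribo-seq against mean RNA-seq level per gene, in CPM plus 0.01 on log axes, in Rpl3l+/+ hearts (left) and control C2C12 cells (right), with grey points for other genes and a dashed line at equal CPM. In the heart Lmtk3 stands far above the line at 0.241 CPM of mRNA and 22.5 CPM of footprints, while Cebpb lies within the main cloud.

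Per kilobase of the whole transcript, untranslated parts included, Cebpb had 51.7 ± 6.42 footprint CPM per kb and Lmtk3 4.65 ± 0.682 in Rpl3l+/+ hearts (SD, n = 4). The coding part is a different share of each transcript, with 296 codons in 1504 nt for Cebpb and 1446 in 4830 nt for Lmtk3. Such levels therefore compare genes only roughly. In Rpl3l-/- hearts the levels were 111.5 ± 17.25 and 1.30 ± 0.479 CPM per kb. The footprint-to-mRNA ratio of Cebpb in Rpl3l+/+ hearts was above that of 57.9% of genes, whose median was 1.52, and that of Lmtk3 was above 99.0%. Cebpb thus sat near the middle of the heart and Lmtk3 at its edge.

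Since both genes are rich in GC, changes of other genes were set against GC content. In heart Ribo-seq the median log2 fold change from Rpl3l+/+ to Rpl3l-/- rose over classes of GC content from -0.26 below 40% GC (209 genes) to 0.27 between 60 and 65% (227 genes). It was 0.41 in the 18 other genes with at least 65%, a class too small to carry the trend. In heart RNA-seq the medians of the classes stayed between -0.03 and 0.02. The mean GC content of the transcripts, weighted by counts, was 51.03 to 51.14% in Rpl3l+/+ and 51.52 to 51.58% in Rpl3l-/- Ribo-seq libraries, without overlap, and overlapped in RNA-seq (52.16 to 52.43% and 52.24 to 52.49%). Genes with the most proline and alanine codons, the top 1 in 20, showed a median of 0.29 over 264 genes, and GC content and these codons cannot be told apart here.

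The 50 other genes nearest in GC content had a median footprint change of 0.32, with a range from -4.81 to 0.94. With this median subtracted, the change of Cebpb was 0.82 and that of Lmtk3 was -2.09. The TE value of Cebpb became 0.25 and its mRNA value 0.61. These values describe 2 genes chosen for their footprint changes, so their place among genes of like GC content is no test. The part of GC content in the footprints of either gene was not tested.

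**Figure D3:**
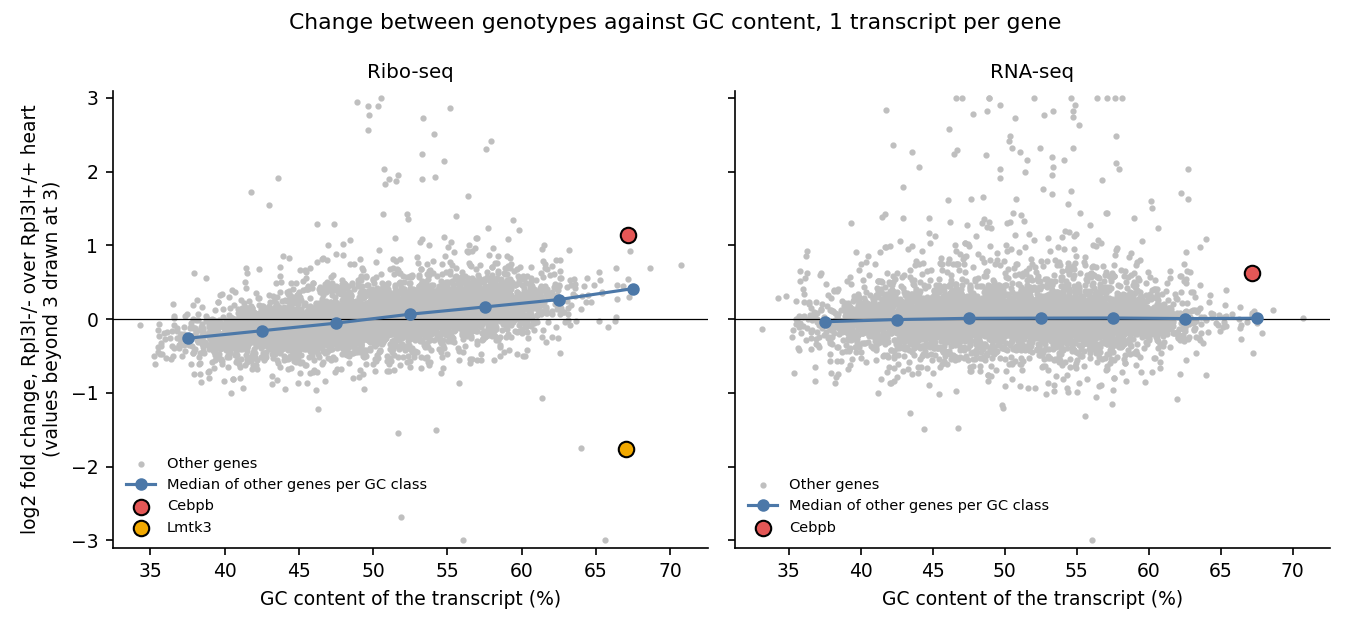
Log2 fold change from Rpl3l+/+ to Rpl3l-/- hearts against the GC content of the transcript in percent, for Ribo-seq (left) and RNA-seq (right), with grey points for other genes and blue points for their median per GC class. The medians climb from -0.26 to 0.41 in Ribo-seq and stay near 0 in RNA-seq, with Cebpb drawn at 1.15 and 0.62 and Lmtk3 at -1.77 in Ribo-seq alone.

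Other members of the C/EBP family were set beside Cebpb. Cebpd, which acts with Cebpb early in adipocyte differentiation, had 26.5 to 42.9 footprint CPM in Rpl3l+/+ and 42.95 to 60.7 CPM in Rpl3l-/- hearts. These groups touch without overlap, and 3.43% of all transcripts tested were higher without overlap. Cebpd differed by 0.69 on the log2 scale with a standard error of 0.16 and an adjusted p-value of 0.0636 (edgeR), and DESeq2 gave an adjusted p-value of 0.0158. In mRNA its log2 fold change was 0.44. Cebpa, which maintains the mature adipocyte and hepatocyte, varied widely between hearts, from 7.47 to 51.2 footprint CPM in Rpl3l-/- hearts, and its log2 fold change of 0.80 (standard error 0.44) had an adjusted p-value of 0.389 (edgeR). Ddit3, the stress-induced family member CHOP, had at most 9 footprints per library and 15.6 to 26.4 CPM of mRNA in both genotypes together. In C2C12 cells Cebpa and Cebpd were at or below 11.2 footprint CPM in every library, against 61.8 to 89.4 CPM for Cebpb. Per kilobase of the whole transcript, again a rough comparison, mean footprints in control cells were 55.8 CPM for Cebpb, 2.42 for Cebpa, 2.26 for Cebpd and 4.04 for Ddit3.

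Over the list of C/EBP family members and basic leucine zipper partners, 7 genes other than Cebpb could be tested in heart Ribo-seq, and edgeR called 0 of them (1 at an unadjusted p-value under 0.05, Cebpd in DESeq2). Their median log2 fold change was 0.31 against 0.02 over all 5379 genes, and 7 of 7 values were above 0 against 53.0% of all genes. The list, Cebpb included, had a median GC content of 53.96% against 50.5% over all genes tested, and the part of GC content was not tested. Over all genes, 0.465% were called as higher and 0.223% as lower. None of the 19 kinases, translation factors and turnover regulators that act on C/EBPβ passed in edgeR (3 at an unadjusted p-value under 0.05, 0 in DESeq2), with a median of -0.01. The same held for 14 genes of the IL-6 family and the acute-phase response, programs that C/EBPβ is known to drive (1 at an unadjusted p-value under 0.05, 0 in DESeq2, median -0.01).

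Of 24 immediate-early and stress-induced genes, 3 passed as higher (0.465% of all genes) and the median was 0.50, with 22 values above 0 (53.0% of all genes). The list had a median GC content of 53.9% against 50.5% over all genes tested. Jund, a subunit of the AP-1 transcription factor, rose from 80.7 ± 9.29 to 114.7 ± 8.43 footprint CPM (SD, n = 4), by 0.55 on the log2 scale with an adjusted p-value of 0.0307 (edgeR). Klf2, a transcription factor of endothelial cells responding to flow, rose by a log2 fold change of 0.69 (adjusted p = 0.044) and Ccn2, a matricellular protein made by fibroblasts and stressed cardiomyocytes, by 0.63 (adjusted p = 0.0493). Each of these calls was lost in several fits without 1 replicate and with 1 transcript per gene. Of 11 genes of adipocyte differentiation, Pnpla2, the lipase that starts triglyceride breakdown, rose from 467.9 ± 10.0 to 593.3 ± 39.2 CPM (log2 fold change 0.38, adjusted p = 0.0317 from edgeR). This call, too, was lost with 1 transcript per gene. The median of that list was 0.61.

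In heart RNA-seq none of these lists had a gene past the threshold in edgeR, where 1 gene in all, Rpl3l, passed. Without Cebpb, 1 of 8 genes of the C/EBP list and 6 of 24 of the immediate-early list had an unadjusted p-value under 0.05, and DESeq2 called the clock gene Per1. Median log2 fold changes in mRNA were 0.12 for the C/EBP list without Cebpb, 0.13 for the immediate-early list and 0.44 for the adipocyte list, against 0.01 over 6303 genes. Thus the immediate-early median was lower in mRNA than in footprints. Cebpd belongs to the C/EBP, immediate-early and adipocyte lists, and Cebpa to the C/EBP and adipocyte lists. The medians of these lists, also in footprints, are therefore not separate observations.

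Among 10 testable genes of the Lmtk family and the reported partners of its kinases, taken without Lmtk3, Ppp1cb passed as lower in heart Ribo-seq (0.223% of all genes) and the median was -0.05. DESeq2 called Ppp1cb and Hspb1, for a small heat shock protein with a log2 fold change of 0.45 and an adjusted p-value of 0.0542 in edgeR. Ppp1cb, a catalytic subunit of protein phosphatase 1, fell from 490.1 ± 20.5 to 358.3 ± 26.75 CPM (SD, n = 4, log2 fold change -0.41, adjusted p = 0.043 from edgeR), a call lost in most fits without 1 replicate and with 1 transcript per gene. Lmtk2, another kinase of the lemur family, had 26.15 to 35.5 footprint CPM in Rpl3l+/+ and 30.1 to 33.3 CPM in Rpl3l-/- hearts. Unlike Lmtk3 it had clear mRNA, with a mean of 10.46 ± 4.33 CPM in Rpl3l+/+ hearts (SD, n = 4). Its log2 fold change was 0.02 in footprints, turning to -0.02 with library totals, and -0.24 in mRNA, with adjusted p-values of 0.985 and 0.9995 from edgeR. Cebpe, Cebpg, Cebpz and Aatk were not analysed here.

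Markers of cell types that a heart can hold were summed beside these results. The 11 neuron markers in the table, a cell type with known Lmtk3 expression, summed to 92.25 to 109.9 footprint CPM in Rpl3l+/+ and 77.2 to 135.2 CPM in Rpl3l-/- hearts, with none at 0, and in mRNA to 33.7 to 45.3 and 23.1 to 43.5 CPM. Of 6 testable neuron genes, edgeR called 0 (3 at an unadjusted p-value under 0.05, 0 in DESeq2), with a median of 0.15. Stmn2, for a neuronal regulator of microtubules, had 8.08 to 11.4 footprint CPM in Rpl3l+/+ and 4.155 to 5.95 CPM in Rpl3l-/- hearts. It was lower without overlap, as were 7.05% of all transcripts tested, with a log2 fold change of -0.96 and an adjusted p-value of 0.0871 (edgeR). Map2, for a dendritic microtubule-associated protein, had 4.901 to 10.1 and 1.56 to 5.60 CPM (log2 fold change -0.68, adjusted p-value 0.37 in edgeR). By comparison, 4 of the 6 testable neuron genes had a log2 fold change above 0, Uchl1 with 0.19 and Tubb3 with 0.11 among them. Prph had 35 to 91 footprint counts per library in Rpl3l+/+ and 38 to 97 in Rpl3l-/- hearts, and Thy1 had 16 to 26 and 14 to 36. Both Stmn2 and Map2 were named after their values were seen. The 14 leukocyte markers, another setting of high Cebpb, summed to 911.1 to 1362 and 942.9 to 1228 footprint CPM, and 0 of 12 were called (1 at an unadjusted p-value under 0.05, 0 in DESeq2, median 0.01). The part of neurons in the Lmtk3 values and of leukocytes in the Cebpb values was not tested. No gene was called either among 3 Schwann cell, 13 fibroblast, 9 endothelial, 10 cardiomyocyte and 3 myoblast genes (in this order 1, 2, 1, 2 and 1 at an unadjusted p-value under 0.05, and 0 in DESeq2), with medians of 0.72, 0.08, -0.04, 0.11 and 0.05. In heart RNA-seq these marker lists also had 0 genes past the threshold in edgeR and DESeq2, and 1 leukocyte and 1 endothelial gene had an unadjusted p-value under 0.05.

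In C2C12 cells, which the choice of the genes did not use, Cebpb footprints were lower with either overexpression. Ribo-seq gave 89.4, 85.2 and 77.4 CPM in control, 69.1, 73.5 and 61.8 CPM in RPL3 OE and 76.05, 72.4 and 71.1 CPM in RPL3L OE cells. The control cultures lay above all others, with means of 84.0 ± 6.11, 68.1 ± 5.91 and 73.2 ± 2.59 CPM (SD, n = 3 each). Against control, edgeR over 13802 transcripts gave -0.32 ± 0.07 (log2 fold change and standard error, adjusted p-value 0.00179) in RPL3 OE and -0.24 ± 0.07 (adjusted p-value 0.017) in RPL3L OE cells. Of all transcripts tested, 5.9% and 5.69% passed as lower in these comparisons, 10.2% and 10.3% were lower without overlap, and both use the same controls. With library totals, the RPL3L OE value was -0.21 with an adjusted p-value of 0.0592. Calls in these comparisons split into 649 higher and 815 lower for RPL3 OE, or 911 and 668 with library totals, and into 743 and 785 for RPL3L OE, or 991 and 536. The RPL3L OE and RPL3 OE cells differed by 0.08 (95% interval -0.06 to 0.22, adjusted p = 0.465).

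Cebpb mRNA in C2C12 cells gave no call. Levels were 25.0, 24.4 and 25.05 CPM in control, 19.75, 20.95 and 24.8 CPM in RPL3 OE and 26.45, 23.5 and 22.4 CPM in RPL3L OE cells, and the groups overlapped. The log2 fold changes were -0.16 for RPL3 OE and -0.05 for RPL3L OE cells against control, neither past the threshold (adjusted p-values 0.235 and 0.786, edgeR). In TE they were -0.16 and -0.19, again short of the threshold (adjusted p-values 0.755 and 0.414, edgeR). The ratio of mean CPM was 3.38 in control, 3.12 in RPL3 OE and 3.03 in RPL3L OE cells, and in control cells it was above that of 96.9% of 5306 genes.

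For Lmtk3 the mRNA was higher with RPL3L than with RPL3 in C2C12 cells, from few counts. RNA-seq counted 16, 8 and 27 reads in control, 4, 2 and 4 in RPL3 OE and 15, 13 and 13 in RPL3L OE cells. In CPM these were 1.02, 0.5585 and 0.908, then 0.523, 0.234 and 0.343, and then 1.85, 1.49 and 1.34. The order RPL3 OE, control, RPL3L OE held without overlap between any groups, as was so for 16.1% of transcripts lower in RPL3 OE than in control, 13.7% higher in RPL3L OE than in control and 20.1% higher in RPL3L OE than in RPL3 OE cells. RPL3L OE exceeded RPL3 OE cells 4.18-fold, or by 2.06 ± 0.51 on the log2 scale (standard error, 95% interval 1.04 to 3.09, adjusted p-value 0.00135 in edgeR), where 13.0% of 14432 transcripts passed as higher. Against control, the values were 0.86 for RPL3L OE and -1.21 for RPL3 OE cells, neither of which passed (adjusted p-values 0.147 and 0.107, edgeR). In these cells the other 3 isoforms stayed below the count filter in RNA-seq. The isoform given passed it with a mean count of 11.33, through the control and RPL3L OE libraries and not the RPL3 OE libraries. Its p-values are thus not independent of the filter. Without control replicate 3, or with RPL3L OE and RPL3 OE cells alone, it fell below the filter and was not fitted.

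Footprints of Lmtk3 in C2C12 cells moved with its mRNA. Ribo-seq counted 17, 12 and 3 in control, 8, 9 and 8 in RPL3 OE and 15, 29 and 23 in RPL3L OE cells, or means of 2.895 ± 1.69, 1.84 ± 0.388 and 4.06 ± 1.20 CPM (SD, n = 3 each). The RPL3L OE cultures lay above the RPL3 OE cultures, whereas control cultures spread over both. The step from RPL3 OE to RPL3L OE was 1.17 ± 0.37 on the log2 scale (standard error, 95% interval 0.43 to 1.91, adjusted p-value 0.0202 in edgeR), with 9.59% of transcripts past the threshold as higher and 17.2% higher without overlap. Over the other isoforms it was 1.04, with adjusted p-values of 0.0438 to 0.0452. The call was lost without RPL3 OE replicate 1 (1.16), RPL3 OE replicate 2 (1.01) or RPL3L OE replicate 2 (0.92), and in DESeq2 (1.16, adjusted p = 0.106). Each RPL3 OE library held fewer than 10 counts, so the mean count of 13.78 passed the filter through the control and RPL3L OE groups. The p-values of Lmtk3 footprints are thus not independent of the filter either. Against control, RPL3L OE gave 0.40 and RPL3 OE -0.77, neither past the threshold (adjusted p-values 0.524 and 0.279, edgeR). In TE, RPL3L OE against RPL3 OE cells gave -0.87 (95% interval -2.14 to 0.40, adjusted p = 0.726 from edgeR).

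**Figure D4:**
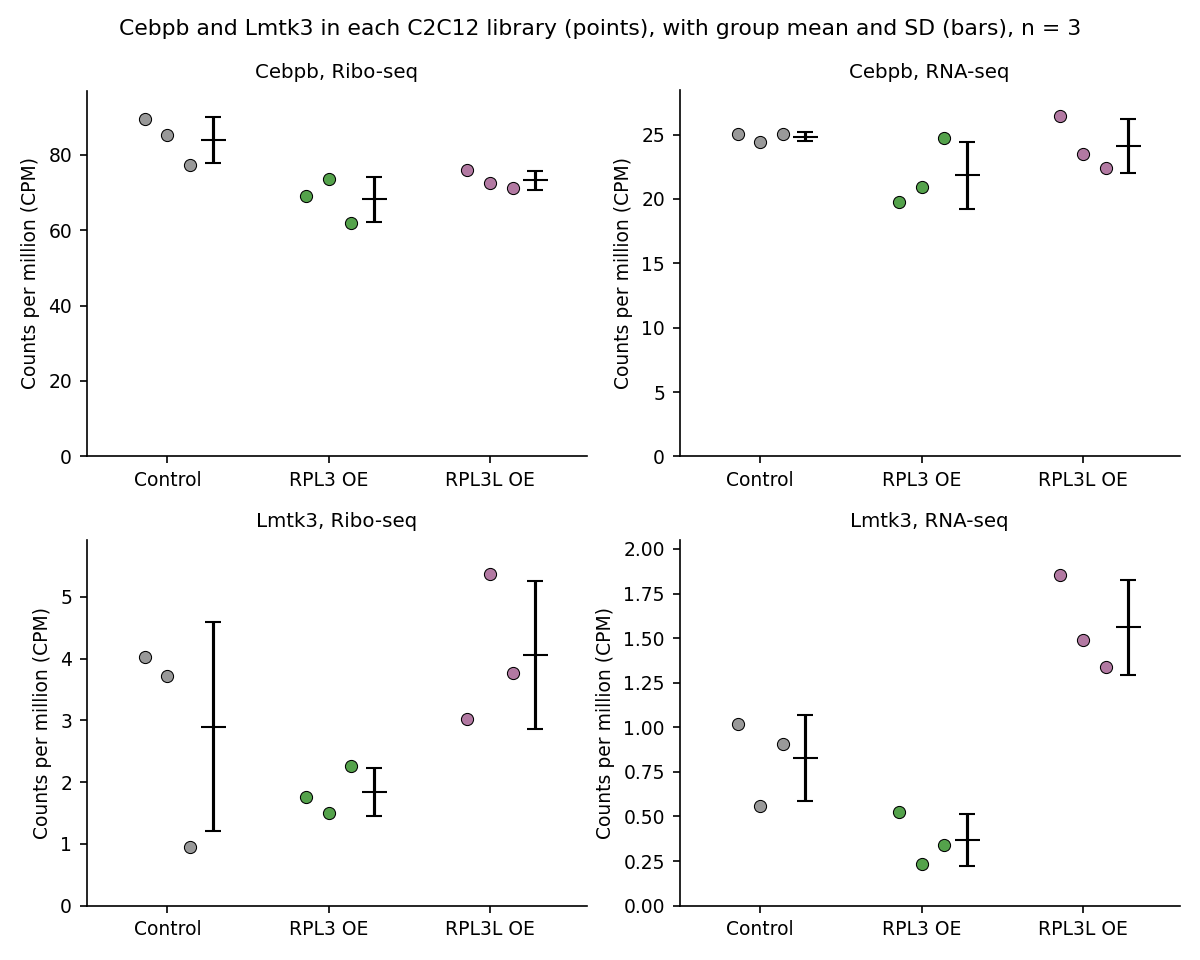
Levels of Cebpb (top) and Lmtk3 (bottom) in CPM in each C2C12 library of Ribo-seq (left) and RNA-seq (right), with points for libraries and bars for the group mean and SD (n = 3). Cebpb footprints are highest in control cells, and Lmtk3 mRNA follows the order RPL3 OE, control, RPL3L OE, all below 2 CPM.

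Sums of cell type markers also differed between the C2C12 groups. The 9 myoblast markers summed to 839.7 to 894.0 CPM in control, 594.4 to 643.1 CPM in RPL3 OE and 1009 to 1021 CPM in RPL3L OE RNA-seq, with none at 0. The 11 neuron markers summed to 830.5 to 865.6, 553.3 to 580.6 and 765.5 to 781.4 CPM, with Npy and Thy1 at 0 in every group. The myoblast sums thus had the same order of groups as Lmtk3, and the neuron sums, highest in control cells, did not. Their part in the Lmtk3 values was not tested. From RPL3 OE to RPL3L OE cells, 6 of 9 myoblast genes rose in Ribo-seq, where 9.6% of all genes rose and 9.94% fell, with a median of 0.64 against 0.005 over 5606 genes, among them Cdon (0.85) and Myod1 (0.67), a receptor and a transcription factor of myoblasts, Des (0.74) for desmin and Chrnd (0.68) for an acetylcholine receptor subunit. Of 6 neuron genes 2 rose, Uchl1 (0.98) and Nefl (0.73), and 2 fell, Map2 (-0.66) and Stmn2 (-0.26), all by edgeR's adjusted p-value. DESeq2 did not call Map2. In the same comparison 3 of 9 fibroblast genes fell, with Mfap5 (-1.58) and Col1a1 (-0.76) in the lead, and 2 of 4 cardiomyocyte genes rose, Tnnc1 (0.97) and Tnnt2 (0.39).

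The lists around C/EBPβ also held changes between RPL3L OE and RPL3 OE footprints, to be read against the 9.6% of all genes that rose and the 9.94% that fell. Of 9 C/EBP family and partner genes, Ep300, a coactivator, rose by 0.23 (adjusted p = 0.0452 from edgeR), a call that DESeq2 did not make, with a list median of 0.08. Of 20 regulators of C/EBPβ, Rps6ka2, for a kinase of the family that phosphorylates C/EBPβ, rose by 0.49 (adjusted p = 2.04e-05), with a median of -0.01. Of 14 IL-6 family and acute-phase genes 5 fell and 0 rose, among them the chemokine gene Ccl2 (-0.81), the cyclooxygenase gene Ptgs2 (-0.73), the metallothionein gene Mt2 (-0.54) and the kinase gene Pim1 (-0.43), with a list median of -0.08. Of 27 immediate-early genes 3 rose and 5 fell, the latter including Ccn2 (-0.57), Klf9 (-0.56) and Gadd45b (-0.45), with a median of 0.01. Of these named genes, DESeq2 did not call Klf9. Of 5 adipocyte genes Pparg fell by 0.38 (adjusted p = 0.04996), and of 15 Lmtk family and partner genes Lmtk3 alone passed, with medians of -0.38 and -0.05. DESeq2 called no gene of the adipocyte or Lmtk list.

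Between tissues, the level of Cebpb differed more in mRNA than in footprints. From control C2C12 cells to Rpl3l+/+ hearts its mRNA was higher by 1.60 ± 0.14 on the log2 scale (standard error, adjusted p-value 1.15e-07 in edgeR), where 39.7% of 15835 transcripts passed as higher and 27.5% were so without overlap. Its footprints were higher by 0.29 ± 0.10 (adjusted p-value 0.0111 in edgeR), where 41.4% of 14250 transcripts passed as higher, and the CPM of the groups overlapped. With library totals this value turned to -0.11, and that scaling shifted the median of all transcripts by -0.41 in Ribo-seq. TE was lower in the heart, at -1.32 ± 0.17 (adjusted p-value 3.41e-06 in edgeR), where 25.2% of 13989 transcripts passed as lower. Lmtk3 footprints were 9.63-fold higher in Rpl3l+/+ hearts (3.27 ± 0.28 on the log2 scale, adjusted p-value 1.26e-08 in edgeR), where 32.9% of transcripts were higher without overlap, although its mRNA gave fewer CPM there than in control cells in the mean, 0.241 ± 0.322 (SD, n = 4) and 0.8275 ± 0.239 (SD, n = 3), with overlap. Tissue, culture and library preparation cannot be told apart in this comparison. The footprints of Rpl3l+/+ hearts also took part in the choice of both genes. The p-values for footprints and TE between tissues are therefore not independent of that choice, and nothing is read from them.

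**Figure D5:**
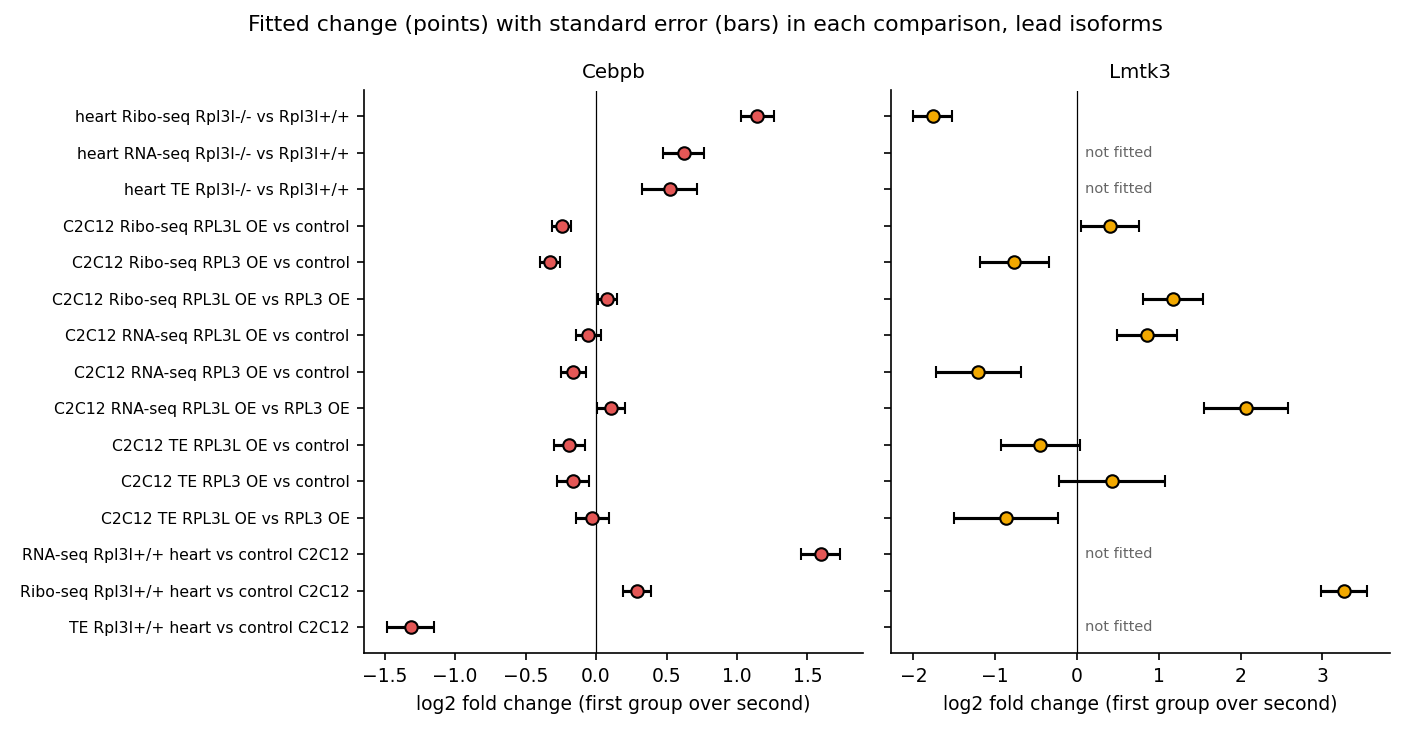
Fitted log2 fold changes (points) with standard errors (bars) of Cebpb (left) and Lmtk3 (right) in each comparison of Ribo-seq, RNA-seq and TE, the first group named over the second. Cebpb is higher in Rpl3l-/- hearts in Ribo-seq (1.15) and RNA-seq (0.62) and lower in C2C12 footprints with either overexpression, whereas Lmtk3 was fitted only where its counts allowed.

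In order of footprint level by library totals, Cebpb stood at 68.1 CPM in RPL3 OE, 73.2 in RPL3L OE, 77.8 in Rpl3l+/+ hearts, 84.0 in control and 167.7 in Rpl3l-/- hearts. The place of hearts against cells depends on the scaling, since with TMM the Rpl3l+/+ hearts were above control cells (log2 fold change 0.29). Neighbours in the order of CPM overlapped, except that the Rpl3l-/- hearts lay above all others. For Lmtk3 the order was 1.84 CPM in RPL3 OE, 2.895 in control, 4.06 in RPL3L OE, 6.27 in Rpl3l-/- and 22.5 in Rpl3l+/+ hearts. Of these neighbours the Rpl3l+/+ hearts alone were clear of the group below them.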

How the data were processed

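RNA-seq and Ribo-seq libraries of 4 hearts per Rpl3l genotype and 3 C2C12 cultures per group were grouped by their labels. The authors deposited raw counts per transcript. For Ribo-seq they trimmed reads with cutadapt, removed rRNA reads, aligned with STAR to GRCm38.p6 allowing multiple matches, collapsed duplicates with UMI-tools and counted with featureCounts. Their read processing for RNA-seq, tool versions and strand setting are not given in the sources used here. For m6A peaks the authors deposited read counts and TPM per peak, searched here only for peaks in Cebpb and Lmtk3.

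Each transcript stood on 2 identical lines, of which 1 was used. Each comparison used edgeR 4.0.16 in R 4.3.3 (quasi-likelihood, TMM scaling) on transcripts whose counts averaged 10 or more over its libraries, with all C2C12 groups in 1 model. For TE, the interaction term between group and assay was tested. P-values were adjusted over all transcripts by the Benjamini-Hochberg method at 0.05. Standard errors come from the fitted coefficient and its test. CPM used library totals, which span 1606700 to 29746110 counts, and set the precision together with the counts given. The labels do not say that replicates of C2C12 cells were separate infections, so p-values measure the spread between these cultures, which may be technical. No libraries were identical. The script was tested on simulated data.

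Alternatives were library totals, DESeq2 1.42.0, other count filters, 1 transcript per gene, fits of the groups compared only, the replicate number as a block and each replicate left out. Subtraction of the median change of the 50 genes nearest in GC content was chosen after seeing the data. Named are all transcripts of both genes, family members in the table, list genes past the threshold in the heart, up to 4 per list with the largest change between RPL3L OE and RPL3 OE footprints, and the 3 genes most alike in their deviations from group means. The genes, lists and tests were chosen with earlier results of these data known. The transcripts used here include only genes of the plus strand, so Rpl3 was not analysed here.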

Additional observations from a re-analysis of the deposited data

Results flagged for a closer look

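The effects of RPL3L OE and RPL3 OE on Lmtk3, each against the same control C2C12 cells, differed in a direct test of RPL3L OE against RPL3 OE cells. In RNA-seq the difference on the log2 scale was 2.06 (standard error 0.51, adjusted p = 0.00135 from edgeR), with 41 counts over the 3 RPL3L OE and 10 over the 3 RPL3 OE libraries. In Ribo-seq it was 1.17 (standard error 0.37, adjusted p = 0.0202 from edgeR), with 67 and 25 counts. In RNA-seq, Lmtk3 passed the count filter through the control and RPL3L OE libraries, and fell below it with RPL3L OE and RPL3 OE cells alone. In Ribo-seq the RPL3 OE libraries also lay below the filter, with at most 9 counts each. Neither p-value is thus independent of the filter.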

How the results depend on the processing

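In the C2C12 and tissue comparisons, 294 of 309 alternative values of Cebpb and Lmtk3 kept direction and side of the threshold. Fits in which Lmtk3 fell below the count filter gave no value and are not among these. Between heart genotypes, where no test of the genes is read, 57 of 59 kept direction and moved by less than the spread between replicates. Relative to the 50 genes nearest in GC content, Cebpb was at 0.82 in heart footprints and 0.25 in TE. The fall of Cebpb footprints in RPL3L OE against control cells missed the threshold with library totals (-0.21, adjusted p = 0.0592), with DESeq2 (-0.24, adjusted p = 0.086) and without control replicate 1, control replicate 2 or RPL3L OE replicate 3, with a range of -0.2945 to -0.21 over replicates left out. The rise of Lmtk3 footprints from RPL3 OE to RPL3L OE cells missed it with DESeq2 (1.16) and ranged from 0.92 to 1.33 over replicates left out. In TE the value of Cebpb between these cells ranged from -0.18 to 0.061. Cebpb footprints in heart against control C2C12 cells missed it without a filter (0.21, adjusted p = 0.0574) and without control replicate 3, with a range of 0.21 to 0.38 over replicates left out, and turned to -0.11 with library totals. In heart footprints Lmtk2 turned to -0.016 with library totals and ranged from -0.059 to 0.067 over replicates left out. In heart mRNA Ddit3 ranged from -0.247 to 0.063 over replicates left out. The cause was not tested in any of these.

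Counts of called transcripts moved further. Heart Ribo-seq had 86, against 190 with DESeq2, 6 with 1 transcript per gene, which tests fewer features, and 17 to 56 without 1 replicate other than Rpl3l+/+ replicate 1 (17, 21 and 43 without Rpl3l+/+ replicates 3, 4 and 2, and 29, 35, 45 and 56 without Rpl3l-/- replicates 3, 1, 2 and 4). Heart RNA-seq had 2 and DESeq2 11, and heart TE 0 and DESeq2 20. With 1 transcript per gene, C2C12 Ribo-seq counts fell from 1528 to 702 (RPL3L OE against control), 1464 to 667 (RPL3 OE against control) and 2603 to 1090 (RPL3L OE against RPL3 OE), C2C12 RNA-seq from 1336 to 561, 2321 to 1005 and 3899 to 1585, and heart against C2C12 from 12781 to 5263 in RNA-seq, 11851 to 4970 in Ribo-seq and 6694 to 2805 in TE. DESeq2 gave 675, 718 and 1220 in C2C12 Ribo-seq and 861 for RPL3L OE against control in RNA-seq. That comparison had 965 in Ribo-seq without control replicate 2 and 823 in RNA-seq without control replicate 3, and a mean count of at least 50 gave 7898 in Ribo-seq of heart against C2C12. C2C12 TE counts, at 280, 7 and 41, ranged over the settings with all replicates from 114 to 409, 1 to 21 and 15 to 69. Without 1 replicate they ranged from 66 (RPL3L OE replicate 3) to 291 (82, 94, 138 and 150 without control replicate 2, RPL3L OE replicate 2, control replicate 1 and control replicate 3), 3 (control replicate 3, RPL3 OE replicate 1 or 2) to 74 (RPL3 OE replicate 3) and 8 (RPL3 OE replicate 2) to 62 (RPL3 OE replicate 3), with 9, 26 and 27 without RPL3L OE replicate 3, RPL3 OE replicate 1 and RPL3L OE replicate 2.

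Same-numbered RNA-seq and Ribo-seq libraries deviated together in 5 of 8 heart pairs (r from -0.491 to 0.444) and 0 of 9 C2C12 pairs at an r over 0.1, so the numbers were not taken to pair samples. With the replicate number as a block, Cebpb was at 1.14 and Lmtk3 at -1.77 in heart footprints, where no call was compared, and no call of either gene changed in C2C12 cells. Cebpd passed the threshold in heart footprints with the block (0.70, adjusted p = 0.0316).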

Other observations

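Genes whose deviations from group means were most like those of Cebpb over the 8 heart Ribo-seq libraries were Arf4 (Pearson r 0.962), Picalm (0.934) and Abl1 (0.921), among 2957 genes with a mean count of at least 50. For Lmtk3 they were Prpf4b (0.981), Cbr1 (0.963) and Rere (0.947). In heart RNA-seq Pla2g16 (0.972), Spsb2 (0.960) and Setd6 (0.9585) were closest to Cebpb among 4918 genes. Over the 9 C2C12 Ribo-seq libraries the closest genes among 4385 were Nup43 (0.979), Zc3h14 (0.953) and Zfp469 (0.948) for Cebpb, and Rundc1 (0.967), Fut11 (0.954) and 1810013L24Rik (0.950) for Lmtk3. No gene was named for both, and the deviations of Cebpb and Lmtk3 had an r of 0.419 in heart and 0.215 in C2C12 Ribo-seq. These values describe few libraries that share depth and preparation, and the highest of so many correlations are large by choice.

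Disome-seq, which sequences the longer footprints of collided ribosomes, counted 2, 4, 5 and 2 reads of Cebpb in Rpl3l+/+ and 2, 6, 0 and 2 in Rpl3l-/- hearts, and none of Lmtk3. With 39016 to 175747 counts per library a difference was not detectable at this depth. Of 3181 m6A peaks in the table, 0 lay in Cebpb or Lmtk3.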
